A study of Arabidopsis thaliana with 6 samples.

Results

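The genes described are 5 loci grouped as clock and light-rhythm genes, measured in roots of Arabidopsis thaliana: GI (GIGANTEA, AT1G22770), TIC (TIME FOR COFFEE, AT3G22380), AT5G52660, AT3G44450 and AT3G52740. They were found through the array's probe annotation, which gives each of them 1 probe set, so that they are 5 of the 13286 genes with a named probe set of their own and 5 of the 22746 probe sets that are no controls. Seedlings germinated on half-strength Murashige-Skoog agar were 5 days old when moved to the same medium with 5 mM boric acid, which inhibits root growth, or to the medium without the addition, and total RNA of roots was taken after 12 h. Plates of both groups stood at 22 °C under 16 h of light and 8 h of dark a day. Each group has 3 Affymetrix ATH1 arrays that the labels call biological replicates, named here boric acid 1 to 3 and control 1 to 3. The growth text of the control samples repeats the transfer to boric acid, while their titles, treatment labels and the series' design call them control, which was followed here. The labels give neither an ecotype nor the hour of harvest, and they do not say what the replicate numbers stand for.

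The plant circadian clock is a network of transcriptional repressors and activators that take turns over the day, and light resets it. GI encodes a large nuclear and cytosolic protein that stabilises the light-sensing F-box protein ZTL and promotes flowering in long days, and its transcript is known to cycle with a peak late in the light period. TIC encodes a nuclear protein needed for a full clock amplitude. The annotation used here gives AT5G52660, AT3G44450 and AT3G52740 no symbol, and they are called by their loci. With a single harvest per array, a rhythm itself was not measured, and the grouping of the 5 genes as rhythmic could not be checked in these data.

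The 5 genes were chosen with their levels on these arrays known, among them the high levels of some on the arrays numbered 1, so their values are a description. No p-value is given for any of them, and how many passed a threshold is given only beside the share of all probe sets that did. Levels are log2 expression values from the authors' RMA processing, and a difference of 1 is a doubling. The highest of the array's TrpnX controls, which have no counterpart in plants, was at 0.12 to 0.22 depending on the array, and levels near these are taken as background. In RNA from whole roots, fewer cells that express a gene and less of its RNA per cell cannot be told apart.

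GI, AT3G44450 and AT3G52740 were high on both arrays numbered 1, whatever the treatment, and lower on the other 4 arrays. TIC was almost level over the 6 arrays, and AT5G52660 was lowest on the arrays numbered 3. In no case did the boric acid arrays and the control arrays form separate ranges.

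GI stood at 2.42, 0.66 and 0.60 on boric acid 1, 2 and 3, and at 3.06, 0.36 and 0.75 on control 1, 2 and 3. The array numbered 1 was the highest of each group, and the other 4 arrays lay close to background. Boric acid 1 exceeded the mean of the other boric acid arrays by 1.80, and control 1 exceeded the mean of the other control arrays by 2.51.

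AT3G44450 had the widest spread of the 5 genes. Its levels were 3.26, 0.83 and 0.31 on the boric acid arrays, against 4.28, 0.71 and 0.85 on the control arrays. The split was again between the arrays numbered 1 and the rest, with a gap of 2.41 between the lower of the arrays numbered 1 and the highest of the other 4. Array 1 exceeded the mean of arrays 2 and 3 by 2.69 in boric acid and by 3.50 in control roots.

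AT3G52740 was well above background everywhere, at 6.84, 5.82 and 5.16 in boric acid and 6.95, 5.34 and 5.19 in control roots. In each group array 1 was the highest and array 3 the lowest, and the gap between the arrays numbered 1 and the highest of the others, boric acid 2, was 1.02. For this gene the split lay wholly at levels far above background.

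TIC, by contrast, stayed between 4.05 and 4.35 on all arrays, with 4.25, 4.28 and 4.34 in boric acid and 4.21, 4.05 and 4.35 in control roots. Of all probe sets, 81.6% had a wider range over the 6 arrays than TIC, and 0.259% had a wider one than AT3G44450. AT5G52660 stood at 2.92, 3.03 and 2.60 in boric acid and at 2.96, 2.93 and 2.37 in control roots. The array numbered 3 was the lowest of each group, and the arrays numbered 1 lay within the range of the others.

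**Figure D1:**
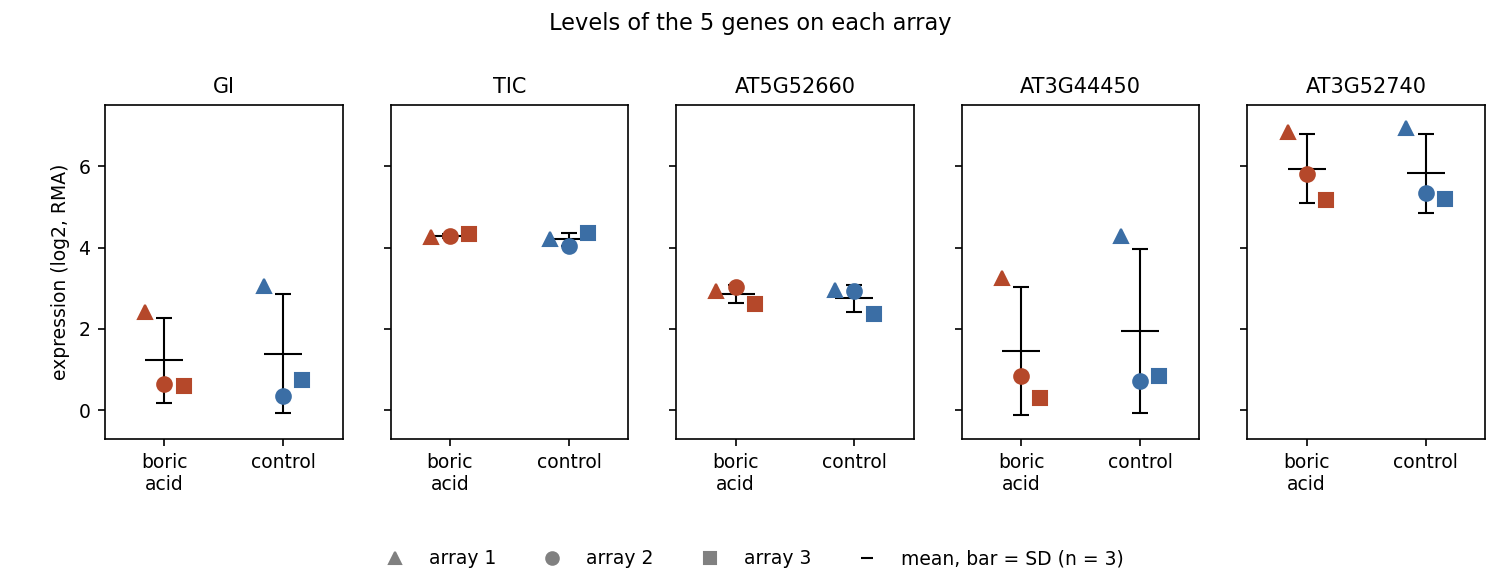
Log2 expression (RMA, vertical axis) of the 5 genes on each array, boric acid in red and control in blue; the symbol gives the replicate number, the horizontal line the group mean and the bar the SD (n = 3). The triangles of arrays numbered 1 stand above all other points for GI (2.42 and 3.06), AT3G44450 (3.26 and 4.28) and AT3G52740 (6.84 and 6.95), and among the others for TIC and AT5G52660.

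The difference between the mean of the arrays numbered 1 and the mean of the other 4 was 3.09 for AT3G44450, 2.15 for GI and 1.52 for AT3G52740, which is 2.87-fold. No fold is given for AT3G44450 and GI, whose levels on the other 4 arrays lay near background. It was 0.21 for AT5G52660 and -0.03 for TIC. The arrays numbered 1 differed from the others in many probe sets: both lay above the other 4 in 11.6% of all probe sets and both below in 10.9%. Among the 5 genes, 3 had both above and none had both below, and since the genes were chosen with these levels known, nothing is read from that share. A difference of more than 1 upwards, as in these 3 genes, was found in 1.54% of all probe sets, from which again nothing is read.

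**Figure D2:**
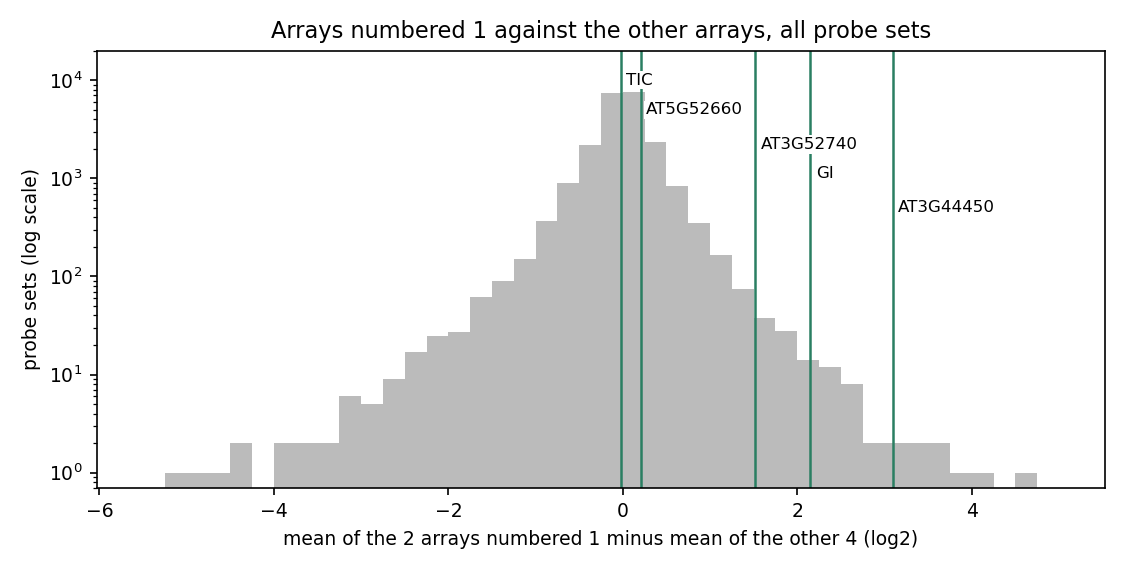
Histogram of the difference between the mean of the 2 arrays numbered 1 and the mean of the other 4 (horizontal axis, log2) over 22746 probe sets, with the number of probe sets on a log axis; green lines mark the 5 genes. TIC (-0.03) and AT5G52660 (0.21) lie in the bulk, and AT3G52740 (1.52), GI (2.15) and AT3G44450 (3.09) lie in the upper tail.

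A measure of RNA quality, the signal near the 3′ end of a transcript relative to its 5′ end, moved with the same arrays. For GAPDH, the 3′ control probe set minus the 5′ one gave 1.61 and 1.89 on boric acid 1 and control 1, and 0.78 to 1.43 on the other arrays. For actin it was 4.84 and 4.50 on the arrays numbered 1, and 3.88 to 4.21 on the others, while for ubiquitin the arrays numbered 1, at 1.31 and 1.29, lay within the 1.27 to 1.75 of the others. The part of RNA quality in the levels of the 3 genes was not tested. Most markers of green tissue also moved on the arrays numbered 1, in opposite directions in the groups. All 5 measured markers were higher on boric acid 1 than the mean of boric acid 2 and 3, by 0.37 to 0.80. On control 1 they were lower than the mean of control 2 and 3, with differences of -0.98 to -0.003, the last of which is no shift. The share of all probe sets with these signs was not computed, so nothing is read from the counts. Their summed level on the linear scale was 92.98, 54.9 and 66.7 on boric acid 1, 2 and 3, and 73.1, 110.4 and 85.4 on control 1, 2 and 3. GI, AT3G44450 and AT3G52740 were instead higher on array 1 in both groups, and the part of green tissue in their levels was not tested. Of 4 measured root markers, the β-glucosidase gene PYK10, known for its high expression in roots, was at 9.96 to 10.44 on every array. The root hair expansin gene EXPA7 had both arrays numbered 1 below the others, and the remaining 3 root markers had neither both above nor both below. In boric acid against control none of the 4 root markers passed in limma, while 3.25% of all probe sets did. EXPA18, also of root hairs, was the only one with an unadjusted p under 0.05, against 16.7% of all probe sets. With the replicate block EXPA18 alone of the 4 was called, as were 9.15% of all probe sets, and it rose (change 0.67 ± 0.13, SE, limma adjusted p = 0.0353). The other root markers did not share this rise: EXPA7 changed by 0.02 ± 0.39 and PYK10 by -0.25 ± 0.12 (SE, without the block). The median change of the 4 was 0.01.

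The comparison of boric acid with control asks whether 12 h of toxic boron changed these transcripts. Changes of the group means ran from -0.48 for AT3G44450 to 0.11 for AT3G52740. Array 1 set the width of the error for 3 of the 5 genes. With 95% intervals as wide as -3.28 to 2.32, for AT3G44450, these changes do not show that the groups were alike. None of the 5 passed the threshold of limma's test, an adjusted p of 0.05 over all probe sets, while 3.25% of all probe sets did, and none had an unadjusted p under 0.05, while 16.7% of all probe sets did. With the replicate number as a block, none of the 5 passed either, while 9.15% of all probe sets did. The ranges of boric acid and control arrays overlapped for all 5, while they were apart in 21.4% of probe sets.

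GI averaged 1.22 ± 1.04 in boric acid and 1.39 ± 1.46 in control roots (SD, n = 3 each), a change of -0.16 ± 0.82 (SE) on the log2 scale with a 95% interval of -2.13 to 1.80. Between same-numbered arrays the differences, boric acid minus control, were -0.64, 0.29 and -0.15 for the numbers 1, 2 and 3. With the block the SE of the same change was 0.19 and the interval -0.63 to 0.30. Differences within numbers thus varied far less than the levels, and they had no common sign. Those of numbers 2 and 3 compare levels of 0.36 to 0.75, close to background, where differences are least certain.

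AT3G44450 averaged 1.47 ± 1.57 in boric acid and 1.95 ± 2.02 in control roots (SD, n = 3 each), a change of -0.48 ± 1.17 (SE) with an interval of -3.28 to 2.32. The same-numbered differences were -1.02, 0.12 and -0.54, and with the block the interval was -1.03 to 0.07. It was lower in boric acid in 2 of 3 pairs, and the pair with the opposite sign had levels of 0.83 and 0.71.

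AT3G52740 averaged 5.94 ± 0.85 in boric acid and 5.82 ± 0.98 in control roots (SD, n = 3 each), a change of 0.11 ± 0.59 (SE). Its same-numbered differences were -0.11, 0.48 and -0.03, and the interval with the block was -0.26 to 0.48. Only pair 2 was positive, and the other pairs lay slightly below 0.

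TIC averaged 4.29 ± 0.04 in boric acid and 4.203 ± 0.151 in control roots (SD, n = 3 each), a change of 0.09 ± 0.11 (SE) with an interval of -0.18 to 0.36. Its same-numbered differences were 0.04, 0.24 and -0.01. The block left the SE of TIC at 0.11, while for GI it had brought it from 0.82 down to 0.19. AT5G52660 averaged 2.85 ± 0.22 in boric acid and 2.75 ± 0.33 in control roots (SD, n = 3 each), a change of 0.10 ± 0.20 (SE). Its same-numbered differences were -0.03, 0.10 and 0.23, and with the block the SE was 0.11 and the interval -0.18 to 0.38.

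No gene of the 5 had the same sign in all 3 pairs, while 43.6% of all probe sets did. In GI and AT3G44450 the signs of pairs 2 and 3 come from levels near background. For every gene of the 5 except TIC, the sign of the unpaired change depended on single arrays. Over the 6 fits that each leave out 1 array, it ranged from -0.76 to 0.67 for GI, from -1.38 to 0.69 for AT3G44450 from -0.34 to 0.68 for AT3G52740 and from -0.09 to 0.22 for AT5G52660, against 0.01 to 0.16 for TIC. On the 4 arrays numbered 2 and 3 alone the changes were 0.07 ± 0.17, -0.21 ± 0.20 and 0.23 ± 0.23 (SE, n = 2 each) for GI, AT3G44450 and AT3G52740, with none past the threshold, while 7.05% of all probe sets passed it there.

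**Figure D3:**
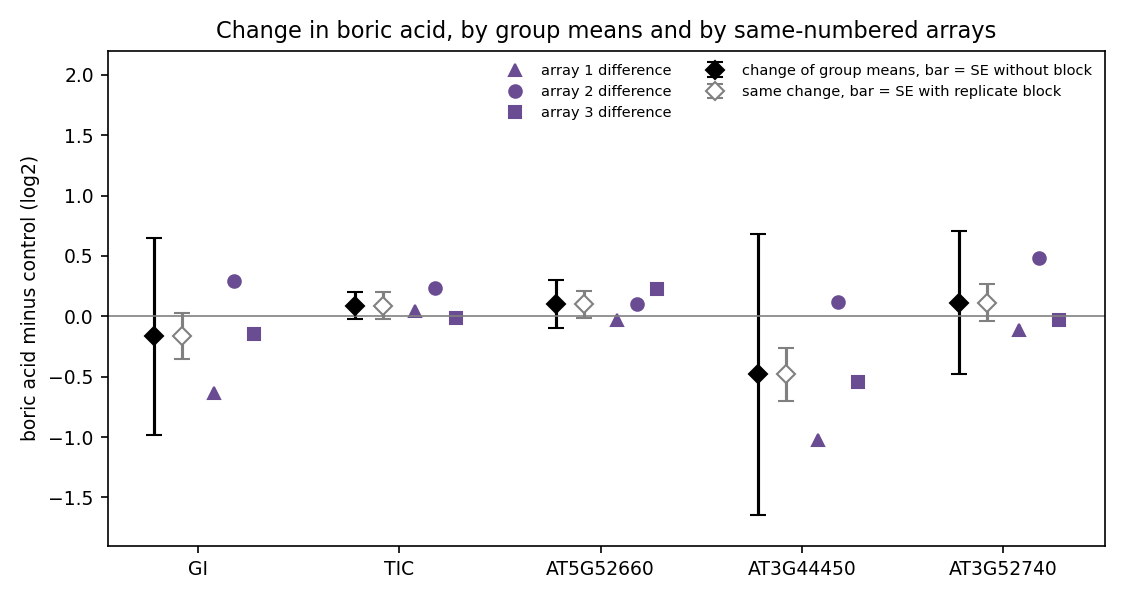
Boric acid minus control (vertical axis, log2) for the 5 genes: black diamonds give the change of group means with the SE of the fit without the block, open diamonds the same change with the SE of the fit with the replicate number as a block, and purple symbols the differences between same-numbered arrays. The SE of GI is 0.82 without and 0.19 with the block, and for each gene the purple symbols lie on both sides of 0.

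A clock list of 44 further genes, which includes the morning repressors CCA1 and LHY and the evening complex, had 4 members with a named probe set of their own. The array may hold others among its 8730 probe sets without a gene name here, so the state of the core oscillator is not known from these values. None of the 4 passed in limma, while 3.25% of all probe sets did. Of the 4, 1, XCT, had an unadjusted p under 0.05, a share near the 16.7% of all probe sets. The median change of the 4 was 0.19, against -0.01 over all probe sets. XCT, XAP5 CIRCADIAN TIMEKEEPER, acts in clock timing and light responses. It stood at 1.68, 1.66 and 1.44 in boric acid and at 1.26, 1.00 and 1.37 in control roots, so that its groups did not overlap. Its change was 0.38 ± 0.14 (SE, limma adjusted p = 0.226, and 0.184 with the block). It was positive in all 3 pairs, while 43.6% of all probe sets had the same sign in all 3.

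FIO1, which sets the period of the clock, was at 0.38, 0.81 and 1.09 in boric acid and at 0.63, 0.67 and 1.46 in control roots. Both arrays numbered 1 lay below the other 4, the opposite of GI, with a gap of 0.05, and its change in boric acid was -0.16 ± 0.28 (SE, limma adjusted p = 0.859). AT4G01280 was also lowest on the arrays numbered 1 in each group, at 2.61, 2.78 and 2.84 in boric acid and 1.69, 2.65 and 3.04 in control roots (change 0.28 ± 0.33, SE, limma adjusted p = 0.772). The gap to the other 4 arrays was again 0.05. AT1G69570 lay between 0.72 and 0.99 on all arrays, with a change of 0.10 ± 0.10 (SE, limma adjusted p = 0.724).

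Of 38 genes written for light signalling, 2 had a named probe set of their own. Neither passed in limma, while 3.25% of all probe sets did, and neither had an unadjusted p under 0.05, while 16.7% of all probe sets did. With 2 genes, nothing is read from these counts. HYH, a bZIP transcription factor related to the light regulator HY5, stood at 6.64, 5.43 and 5.27 in boric acid and at 6.23, 5.25 and 5.04 in control roots. It shared the split of AT3G52740: both arrays numbered 1 lay above the other 4, by a gap of 0.80, and the difference of means was 1.19. Its change in boric acid was 0.27 ± 0.45 (SE, limma adjusted p = 0.852). All 3 same-numbered differences of HYH were positive, at 0.41, 0.17 and 0.23, while 43.6% of all probe sets had the same sign in all 3. With the block the SE was 0.11 and the call was not made (limma adjusted p = 0.220). FHL, which helps bring phytochrome A into the nucleus, was at 0.08 to 0.41 on all arrays, near background.

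**Figure D4:**
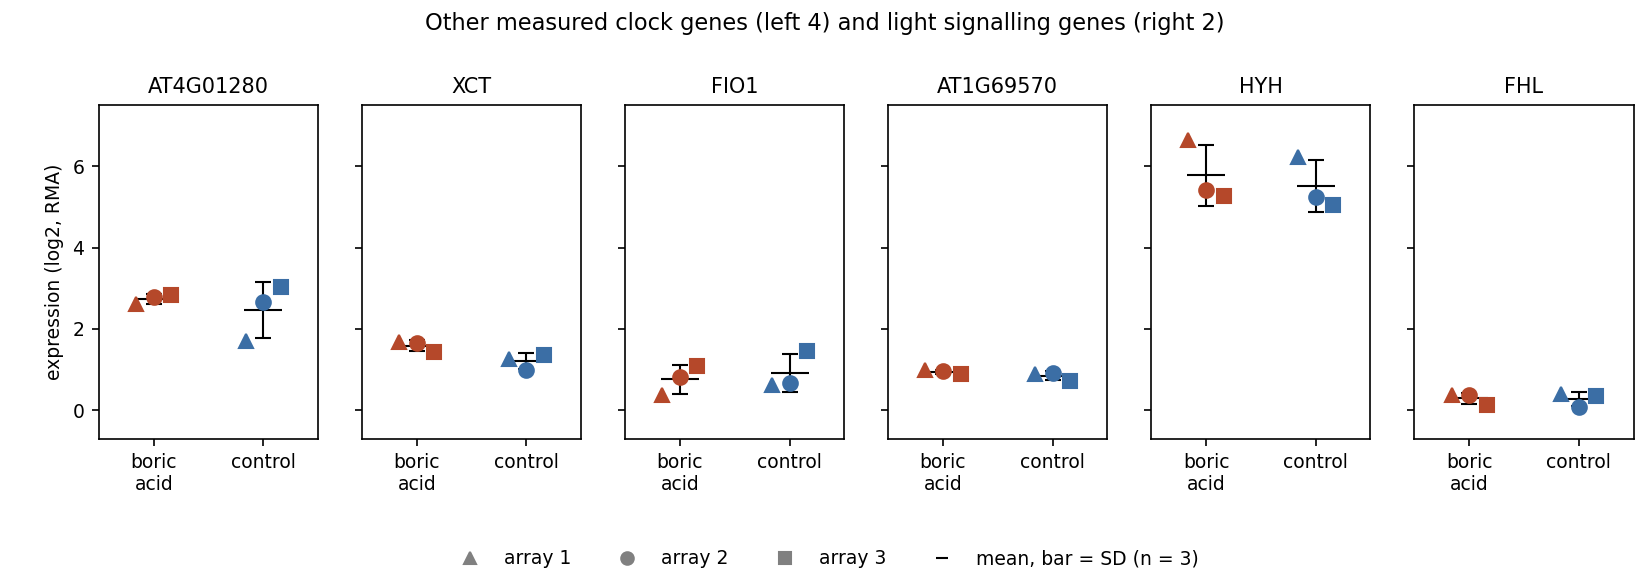
Log2 expression (RMA, vertical axis) of the 4 measured genes of the clock list and the 2 of the light signalling list on each array, boric acid in red and control in blue; symbols give the replicate number, lines the group mean and bars the SD (n = 3). HYH stands apart upwards on the arrays numbered 1 (6.64 and 6.23), FIO1 (0.38 and 0.63) and AT4G01280 (2.61 and 1.69) lie lowest there, and the groups of XCT do not overlap.

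Genes with a level profile like each of the 5 were sought among 6937 other named probe sets with a mean level of at least 1, by Pearson correlation over the 6 arrays, as a description. This takes in genes that reach the mean only through the arrays numbered 1. AT4G33040, AT1G62870 and AT3G44450 did so, with means of 0.91, 0.84 and 0.67 on the other 4 arrays. The profiles nearest to GI were those of AT3G19440 (r = 0.994), AT4G33040 (r = 0.991) and AT3G44450 itself (r = 0.989). For AT3G44450 they were UGT72E3, a UDP-glycosyltransferase gene (r = 0.999), AT1G62870 (r = 0.996) and AT5G66985 (r = 0.993). All of these had both arrays numbered 1 above the rest, so the 6 arrays fall into 2 clusters. The correlations with GI rest largely on that split. On the 4 arrays numbered 2 and 3, r with GI was 0.467 for AT3G19440, 0.508 for AT4G33040 and 0.221 for AT3G44450. On the same 4 arrays, r with AT3G44450 was 0.948 for UGT72E3, 0.633 for AT1G62870 and 0.809 for AT5G66985. UGT72E3 lay at 1.82 to 1.98 on them. These 4 arrays are among the 6 by which the genes were picked, so r on them is no separate check.

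The profiles nearest to AT3G52740 were those of AT5G47060 (r = 0.997), AT1G78210 (r = 0.996) and AT3G27880 (r = 0.993), which also had both arrays numbered 1 above the rest. On the 4 arrays numbered 2 and 3 their r was 0.980, 0.965 and 0.953, which again is no separate check. AT5G47060 stood at 5.36, 3.85 and 2.81 in boric acid and at 5.56, 3.11 and 2.63 in control roots and like AT3G52740 was highest on control 1 and boric acid 1, followed by boric acid 2 and control 2. TIC was most like AT1G27430 (r = 0.982), SWC2 (r = 0.977) and AT4G38890 (r = 0.976), and AT5G52660 most like UGT84A3 (r = 0.974), AT4G39270 (r = 0.969) and AT4G01897 (r = 0.966), none of which had the arrays numbered 1 apart.

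The closest protein-coding neighbours of the 5 genes on the chromosome were looked up by position in the RefSeq table of the TAIR10.1 assembly, and 4 of 10 had a named probe set of their own. AT3G44440, beside AT3G44450, was at -0.05 to 0.29 on all arrays, near background. AT3G52730 and FTSZ2-2, a gene of plastid division, on either side of AT3G52740, lay at 8.48 to 9.20 and 1.07 to 2.13. AT5G52670, beside AT5G52660, was at 0.05 to 0.36. None of the 4 had both arrays numbered 1 above or below the others.

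Of 22 genes written as markers of green tissue, 5 were measured. None passed in limma, while 3.25% of all probe sets did. An unadjusted p under 0.05 was found for 3 of the 5, against 16.7% of all probe sets. The changes of the 5 ran from -0.99 to 0.12, with a median of -0.63, against -0.01 over all probe sets. LHCB4.2, a light-harvesting protein gene, had the largest change of the 5, at 1.75, 1.18 and 1.21 in boric acid and 1.71, 2.93 and 2.47 in control roots (-0.99 ± 0.32, SE, limma adjusted p = 0.187). Without both arrays numbered 1 it fell by 1.502 (limma adjusted p = 0.0118, n = 2 each).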

How the data were processed

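Biotin-labelled RNA copies were made with a 3′ kit, per the labels' protocols, and hybridised to ATH1 arrays. The authors deposited 1 log2 level for each probe set and array, made with RMA per the submitters' processing notes. A version, the background step and parameters are not given in the sources used here.

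Of 22810 probe sets, 64 controls were set aside. Probe sets were named through the probe annotation's gene IDs and RefSeq genes of TAIR10.1: 13436 had 1 locus, 503 several genes and 8730 none. Where a gene had several probe sets, the one with the highest mean stood for it. Boric acid was compared with control in limma 3.58.1 (R 4.3.3) over 22746 probe sets, with empirical Bayes moderation, two-sided p-values and Benjamini-Hochberg adjustment. The test was checked on simulated data with independent arrays. These had no split by replicate number, so the check does not cover the split seen here. Intervals are 95% intervals of the fit. Arrays have no depth, and their number limits the precision. The labels say biological replicates and not whether these were separate cultures, so p-values measure only the spread between these samples.

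The arrays share the numbers 1 to 3. Deviations from group means correlated at 0.608, 0.231 and 0.618 within the pairs, all over 0.1, and the numbers were taken to pair the samples. Between differently numbered arrays r was -0.619 to 0.284. The highest of these, boric acid 3 with control 2, lay above the 0.231 of pair 2, so the pairing of number 2 is the least clear. Deviations within a group sum to 0, so a shared split of the arrays numbered 1 by itself raises r among the others. Passing 0.1 in pairs 2 and 3 is therefore not separate from pair 1. The unpaired fit is the main one and the block the alternative. Other alternatives were leaving out arrays, quantile normalization, median centring, a mean of at least 1 and a trended, robust prior.

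The 5 genes and the lists (clock, light signalling, green tissue, root) were chosen with earlier results of these data known. The genes named are these 5, the measured genes of the clock and light signalling lists, up to 4 called genes or the 1 with the largest change of the marker lists, and for each of the 5 the 3 most correlated genes. Neighbours were taken by position, and EXPA7, EXPA18, PYK10 and PSAN were named after their values were seen.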

Additional observations from a re-analysis of the deposited data

How the results depend on the processing

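None of the 5 genes passed the threshold under any of the 12 alternatives in limma. In these, 70 to 2081 of 22746 probe sets passed, and 742 of 12930 with a mean of at least 1. Nothing is read from 5 genes at such shares. Each change moved by less than the SD between replicates within groups in the main fit. For GI (1.27), AT3G44450 (1.81) and AT3G52740 (0.91) that SD contains the split of the arrays numbered 1, so it is a lenient measure. Without single arrays the changes of GI, AT3G44450, AT3G52740 and AT5G52660 reached both signs. With the replicate block 2081 probe sets passed, against 740 without it, and among the named genes the block changed only the call of EXPA18. Without both arrays numbered 1, 1604 probe sets passed, and leaving out 1 array at a time gave 70 to 1129, lowest without boric acid 2 and highest without control 1. Of the green tissue genes, 2 fell without both arrays numbered 1, LHCB4.2 and PSAN, and leaving out 1 array gave 0 to 2, the 2 being without control 1. The cause was not tested. With single arrays left out the changes of AT4G01280 (-0.10 to 0.57), FIO1 (-0.33 to 0.11), HYH (-0.16 to 0.63) and FHL (-0.088 to 0.091) reached both signs. AT4G01280 also turned to -0.037 without both arrays numbered 1 and FHL to -0.0075 with median centring. Under quantile normalization and median centring, both chosen after seeing the data for this pattern, the arrays numbered 1 stood above the rest for 3 of the 5 genes, as in the deposited values. GI, AT3G44450, FIO1 and FHL lie near background on several arrays, where differences are least certain.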
